A study of Mus musculus with 3 samples.

Results

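Of 31850 merged regions of SRF signal in mouse cornea, 670 were called in the Dstn-corn1 mutant library and not in the wildtype library, 2.10% of all regions. They were chosen by the authors' own presence calls, which were set on the signal of the same 2 libraries. Their heights are therefore given as a description and support nothing. The other regions comprised 15587 called in both libraries and 15593 called in wildtype only.

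SRF, the serum response factor, was immunoprecipitated from whole cornea and the bound DNA was sequenced (ChIP-seq). The mutant library came from mice of the Dstn-corn1 genotype, and the comparison library is titled wildtype. Dstn encodes destrin, which takes actin filaments apart. All mice were about 8 weeks old, of mixed background and untreated, and an input library made without antibody was not used for values here. The labels carry 1 growth protocol for all 3 libraries, and it speaks of mutant mice, so the wildtype title and that protocol disagree. No genotype is labelled for the input, and no number of animals for any library. Whole cornea holds epithelium, stroma and endothelium, so a region's signal cannot be assigned to one cell type, and fewer cells of a type cannot be told apart from less signal per cell. Each genotype had 1 library, so no difference has a replicate check, no test was run between genotypes and no p-value is given.

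SRF binds the CArG box, a short A/T-rich element flanked by CC and GG. It works with 2 families of partners. The MRTFs are held in the cytoplasm by actin monomers and turn on cytoskeletal and contractile genes when monomers are used up. The TCFs, such as Elk4, respond to MAP kinase signalling and turn on immediate early genes. In the cornea, loss of destrin function is known for an overgrown epithelium with increased filamentous actin.

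The depth behind the heights is unknown, since no read totals were used here. The mutant library had 16399 called intervals and the wildtype library 31282, and the lowest called height was 9 in each. The height of a region is its peak signal, a whole number. The 3 regions of Dstn were each listed at 0 in mutant, against 35, 11 and 13 in wildtype, so the titles and these values did not conflict. The log2 ratio of mutant to wildtype height, with 1 added to each, had a median of -1.10 across the 31850 regions. How the libraries were scaled to each other was not given in the sources used here, so a common shift in level between them could not be told apart from a difference in binding.

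Promoter sequence was available for gene starts that lay inside these regions, and it is shown first because it is independent of the calls. RefSeq windows (GRCm38.p6, the assembly also named mm10) ran from 250 bases before to 50 bases after a gene start. A whole window lay inside 129 of the 670 regions, and 5 of these held an exact CArG box on either strand, 3.88% (exact binomial 95% interval 1.27 to 8.81). Of regions called in both libraries 1.69% did (1.26 to 2.22, 51 of 3016), and of those in wildtype only 0.976% (0.535 to 1.63, 14 of 1434). The share was 5.10% (2.94 to 8.14, 16 of 314) in regions called in both whose mutant height was not lower. Of all 32851 windows, 1.63% held one. The interval of the mutant-only regions covers the share of all windows. That share counts windows, whereas the class shares count regions, and 1 region can hold more than 1 window. The 250 upstream bases of 4 of the 5 promoters and of Tpm1 are given 5′ to 3′ on the gene's strand, with the CArG box in capitals. Tpm1, a tropomyosin gene, is included as the promoter of an actin-linked gene whose window held no exact match, the nearest having 1 mismatch.
Fhl2 (chr1:43163962-43164211, minus strand): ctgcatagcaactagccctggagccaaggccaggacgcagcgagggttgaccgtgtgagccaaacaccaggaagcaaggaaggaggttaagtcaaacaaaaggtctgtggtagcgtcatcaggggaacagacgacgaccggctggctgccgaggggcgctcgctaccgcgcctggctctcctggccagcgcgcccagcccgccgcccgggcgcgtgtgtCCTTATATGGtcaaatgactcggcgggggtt
Myo1e (chr9:70207100-70207349, plus strand): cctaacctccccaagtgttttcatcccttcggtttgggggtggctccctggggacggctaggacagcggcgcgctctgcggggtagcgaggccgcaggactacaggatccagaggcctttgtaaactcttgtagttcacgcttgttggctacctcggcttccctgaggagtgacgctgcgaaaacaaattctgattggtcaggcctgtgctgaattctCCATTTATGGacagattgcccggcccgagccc
Ckap5 (chr2:91526512-91526761, plus strand): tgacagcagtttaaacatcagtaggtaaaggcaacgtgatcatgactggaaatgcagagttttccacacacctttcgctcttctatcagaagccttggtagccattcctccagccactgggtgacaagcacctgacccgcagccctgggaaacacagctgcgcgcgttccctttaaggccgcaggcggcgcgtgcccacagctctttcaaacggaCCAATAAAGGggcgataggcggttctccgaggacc
Gstp1 (chr19:4037913-4038162, minus strand): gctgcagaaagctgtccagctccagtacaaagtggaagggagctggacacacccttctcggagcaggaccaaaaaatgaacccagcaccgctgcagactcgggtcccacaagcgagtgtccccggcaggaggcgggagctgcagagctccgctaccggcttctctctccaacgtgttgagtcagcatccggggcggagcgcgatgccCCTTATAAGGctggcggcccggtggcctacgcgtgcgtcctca
Tpm1 (chr9:67049214-67049463, minus strand): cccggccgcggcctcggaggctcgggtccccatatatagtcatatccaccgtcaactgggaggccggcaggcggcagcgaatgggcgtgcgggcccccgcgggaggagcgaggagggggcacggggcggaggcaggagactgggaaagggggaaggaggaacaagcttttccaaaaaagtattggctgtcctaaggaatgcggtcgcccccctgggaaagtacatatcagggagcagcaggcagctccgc

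The boxes of these 4 promoters began close to the gene start, at -31 in Fhl2, -32 in Myo1e, -35 in Ckap5 and -43 in Gstp1, counted from the gene start. Fhl2 encodes a LIM-domain protein that binds SRF partners, Myo1e a single-headed myosin, Ckap5 a protein that promotes microtubule growth, and Gstp1 a glutathione transferase. The fifth promoter, A530046M15Rik, had its box farther out, at -235, in a region of height 10 in mutant and 8 in wildtype. The Fhl2 region stood apart in height, with 19 in mutant and 6 in wildtype. The Gstp1 region reached 13 and 8 and the Myo1e region 14 and 12. The Ckap5 promoter lay in a region that the authors assigned to Gm13770, which was lower in mutant, at 15 against 21. Gstp1 has a near-identical neighbour, Gstp2, to which the same region was also assigned, so reads may be split between them. Myo1e, Ckap5, Gstp1 and A530046M15Rik are named for their boxes, after the values were seen. A match is a description and not a binding site.

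Among 4 other promoter motifs was GGGCGG, the core of Sp factor sites. Of the 129 mutant-only regions with a whole window inside, 78.3% held it (70.2 to 85.1). The share was 71.7% in regions called in both and 73.7% in wildtype only. When any overlap of a region with a window was taken, the shares were 79.5% (73.5 to 84.6), 70.6% and 70.3%. The mutant-only interval then left out the shares of both and of wildtype only. It covered the 80.7% of regions called in both whose mutant height was not lower, which had 82.8% with whole windows. CCGGAA, a core of ETS factor sites, stood in 33.3%, 38.2% and 33.1% of the regions with a whole window inside. TGACGTCA, the cAMP response element, stood in 3.88%, 3.71% and 4.60%, and TGANTCA, the AP-1 site, in 3.10%, 4.14% and 4.39%. When any overlap was taken, the TGANTCA shares were 6.39% (3.54 to 10.5), 4.58% and 5.39%. The mutant-only share thus went from lowest to highest, and under either rule its interval covered the shares of the other classes. The mutant-only share of TGACGTCA became the lowest with any overlap, and the order for CCGGAA stayed the same. Over all windows the shares of the 4 motifs were 35.7%, 14.9%, 1.79% and 7.81%, in the order named. These count windows and not regions, and 1 region can hold more than 1 window. Both strands were searched, and a base could belong to more than 1 motif. The bound promoters of all 3 classes were richer in G and C, with medians of 63.7%, 63.0% and 64.0% against 52.7% over all windows.

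The mutant-only regions were low. Their mutant height ran from 9 through a median of 14 to 42, and their wildtype height from 1 through 10 to 22. Regions called in both had median heights of 20 and 42. The mean signal over a region gave the same picture, with medians of 7.51 in mutant and 5.29 in wildtype. A mutant-only region was 531 bp long in the median (265 to 1421), close to the 526 bp of wildtype-only regions and shorter than the 718 bp of regions called in both.

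Most of these regions had a wildtype height within the range of called heights. No input values were used, so such heights cannot be told apart from background. The wildtype height was at least 9, the lowest height called in either library, in 434 of the 670, or 64.8%. Among regions called in wildtype only, the mutant height was at least 9 in 7558 of 15593, or 48.5%. A call therefore did not follow from height alone. The mutant height was above the wildtype height in 579 mutant-only regions (86.4%, against 3.69% of all regions), equal in 40 and lower in 51. It was at least 2-fold higher, after adding 1 to each, in 123 (18.4%, against 0.414% of all regions), and of the 132 such regions in all the other 9 were called in both. The median log2 ratio was 0.45 (95% interval over regions 0.42 to 0.49), from -0.66 to 3.10. The rule used these heights, so nothing is read from these counts. When mutant heights were scaled to the wildtype median over regions called in both, all 670 were higher in mutant and the median log2 ratio was 1.47.

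**Figure D1:**
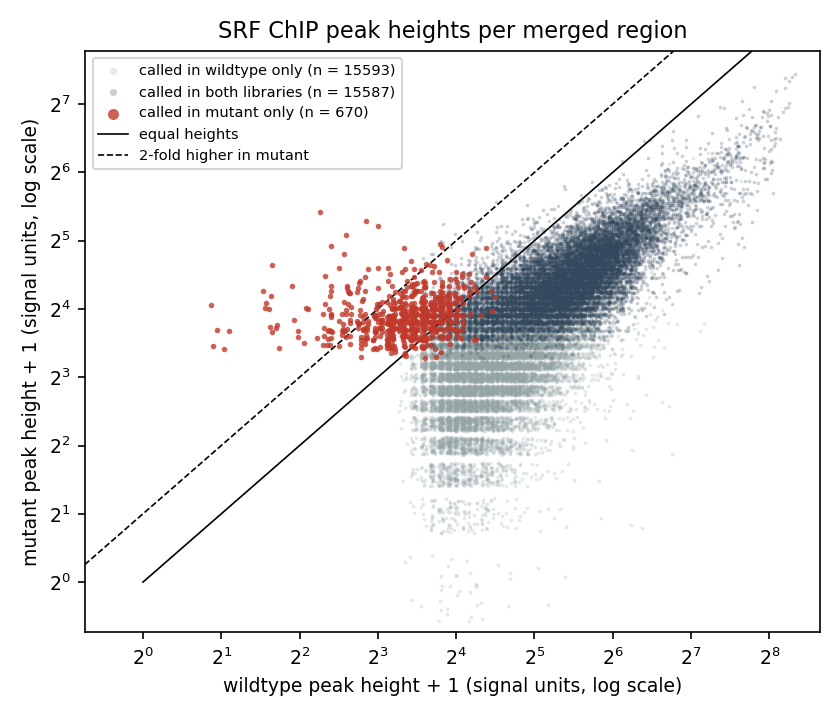
Mutant height against wildtype height for each merged region, both plus 1 on log scales, with small horizontal and vertical offsets so that equal whole numbers do not hide each other. The 670 regions called in mutant only (red) lie low in both libraries and mostly above the line of equal heights, 123 of them on or above the dashed line of 2-fold.

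The edge of the rule was not a line in wildtype height. Of the mutant-only regions, those with the highest wildtype height lay at Sema4f (17 in mutant, 22 in wildtype), Gm13770 (15 and 21), Mon1b with Syce1l (18 and 21), Arid3a (29 and 20) and BC035044 (21 and 20). Just outside, among regions called in both, those with the lowest wildtype height lay at Uggt1 (12 and 9), Rpl34 (13 and 9), Syp with Prickle3 (11 and 9), Xbp1 with Ccdc117 (12 and 10) and a region on chromosome 12 with no gene (10 and 10). These regions inside the rule had more wildtype signal than those outside it.

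A few regions were high in mutant with little signal in wildtype. The highest (chr10:111996837-111997658) had a height of 42 in mutant against 4 in wildtype, with a log2 ratio of 3.10. Its centre was listed 17 bp past the start of Glipr1, which encodes a secreted cysteine-rich protein, and it was also assigned to Krr1. Another region, 19541 bp past that start, went the other way, at 19 in mutant and 42 in wildtype. The next, at 38 and 6, lay inside Arhgap25 (chr6:87502717-87503521), which encodes an activator of the GTP hydrolysis of Rac. The other 4 regions of Arhgap25 were all lower in mutant, with 14, 20, 24 and 15 in mutant against 25, 63, 79 and 35 in wildtype. Within this gene the mutant height was highest where the wildtype height was lowest, but the site was picked by its call and mutant height.

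Other regions of the same genes were mostly lower in mutant, as were 97.3% of all regions called in wildtype, so the contrast within a gene follows from the rule and is a description. Iqgap1, a scaffold that links Rac and Cdc42 to actin, carried a mutant-only region of 30 in mutant and 13 in wildtype. Its other regions reached 27, 12 and 7 in mutant against 47, 44 and 19. At Kcnab1, a potassium channel subunit gene, the mutant-only region reached 33 and 5, beside neighbours of 16 and 37, 9 and 16, and 17 and 36. Downstream of Bai1, an adhesion receptor gene of the G protein-coupled class, the heights were 29 and 4, and the 8 other regions of the gene were all lower in mutant. Downstream of Txn2, the mitochondrial thioredoxin gene, they were 29 and 13, and the 4 other regions were all lower. Nedd9, a focal adhesion scaffold gene, had 21 and 4 inside the gene, against 44 and 106 and 12 and 24 elsewhere. Over Arhgap25 and these 5 genes, all 24 other regions were lower in mutant as deposited and 14 of the 24 after scaling, among them 1 of the 4 at Txn2.

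Slc20a2, a phosphate transporter gene, had 23 and 5, and Wdr7 had 23 and 6. Arid3a, a transcription factor gene, was among the highest in mutant at 29 but reached 20 in wildtype. Sites of the same kind also lay where no gene was assigned. They reached 36 and 7 on chromosome 15 (43720701 to 43721337), 27 and 5 on chromosome 12 (8888334 to 8889022) and 24 and 2 on chromosome 6 (140357938 to 140358407), with log2 ratios of 2.21, 2.22 and 3.06.

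A histone gene region of chromosome 13 was the second highest of those at gene starts (21782072 to 21782821). It reached 29 in mutant and 9 in wildtype and was assigned to Hist1h1b, Hist1h3i, Hist1h2an and Hist1h2bp, none of which had another region. Of 37 histone cluster genes with a region, 9 carried one called in mutant only (24.3%, against 5.40% of all genes), but these shared just 2 regions, the other reaching 14 and 12. Histone genes are near-identical copies, so their reads may be split or misplaced. Others among the highest at gene starts were Tmem66 (25 and 14, with Leprotl1), Arc (22 and 8), Cwh43 (22 and 12), Mospd3 (22 and 15, with Pcolce), 6430531B16Rik (22 and 16, with Adam8) and Eml4 (21 and 14). Eml4 encodes a microtubule-binding protein. Arc, an immediate early gene of synapses and a known SRF target, was higher in mutant at a region centred at -923 bp from its start. At -17 bp it had 4 in mutant and 14 in wildtype, and at -6754 bp it had 17 and 28.

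In location, which the rule did not use, the mutant-only regions lay at gene starts more often than most other regions. Of the 670, 300 had their centre within 1 kb of a gene start, 44.8% (41.0 to 48.6), against 26.2% of regions called in both (25.5 to 26.9) and 18.3% of regions called in wildtype only (17.7 to 18.9). Another 201 lay elsewhere in a gene, 77 flanked a gene and 92 had no assigned gene, the last 13.7% against 20.6% and 27.5%. The median distance to the nearest gene start was 888 bp over the 578 with a gene (541 to 1227), against 5529 bp and 8678 bp. CpG islands held 316 of the 670, or 47.2% (43.3 to 51.0), against 27.1% and 17.8%. Of the 300 at gene starts, 89.7% lay on an island, and of the 370 away from them 12.7% (9.48 to 16.5), against 5.87% and 3.76%. These intervals cover counting over regions and not variation between animals.

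Mutant-only regions were not alone in this. The 720 regions called in both whose mutant height was not lower had a promoter share of 58.6% (54.9 to 62.2) and a CpG island share of 61.4% (57.7 to 65.0), both above those of the mutant-only regions. Their median distance to a gene start was 222 bp.

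**Figure D2:**
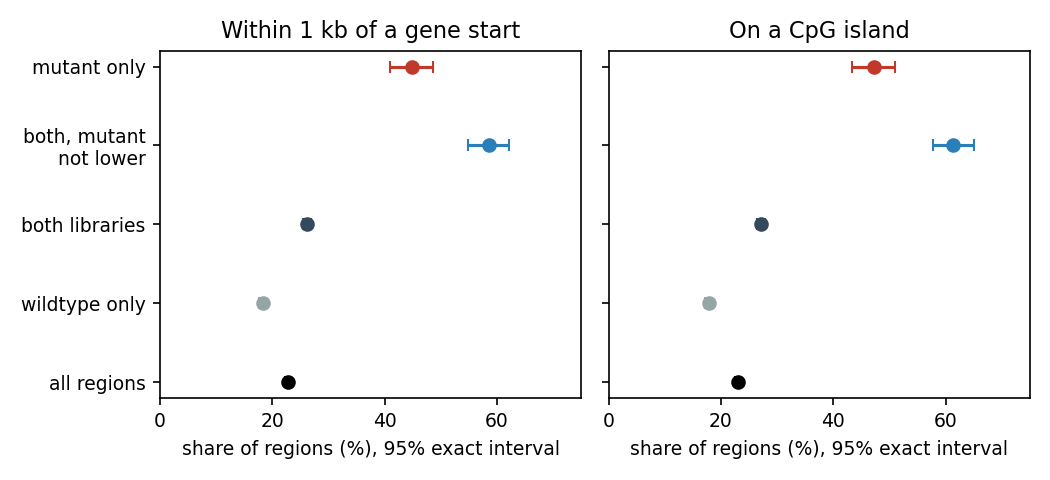
Share of regions within 1 kb of a gene start (left) and on a CpG island (right) for each class of call, in percent, with exact binomial 95% intervals as bars. Mutant-only regions, at 44.8% and 47.2%, lie between the shared regions that were not lower in mutant and the other classes.

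The promoter share was lower in higher regions. Among mutant-only regions of mutant height 9 to 11 it was 59.0% (79 of 134), then 49.2% at 12 to 13, 39.1% at 14 to 15, 36.3% at 16 to 19 and 28.8% (17.1 to 43.1) in the 52 of at least 20. Regions called in both had 41.7%, 34.4%, 29.6%, 23.5% and 24.7% in the same bins, and wildtype-only regions 23.9%, 23.3%, 20.7%, 14.7% and 12.6%. At like mutant height the mutant-only share was the highest of the 3 in each bin, though in the last its interval covers the value of regions called in both. Set at like wildtype height the order differed. Between wildtype heights of 9 and 15 the share was 50.9% of 407 mutant-only regions, 65.3% of 522 called in both and 29.5% of 3578 called in wildtype only.

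**Figure D3:**
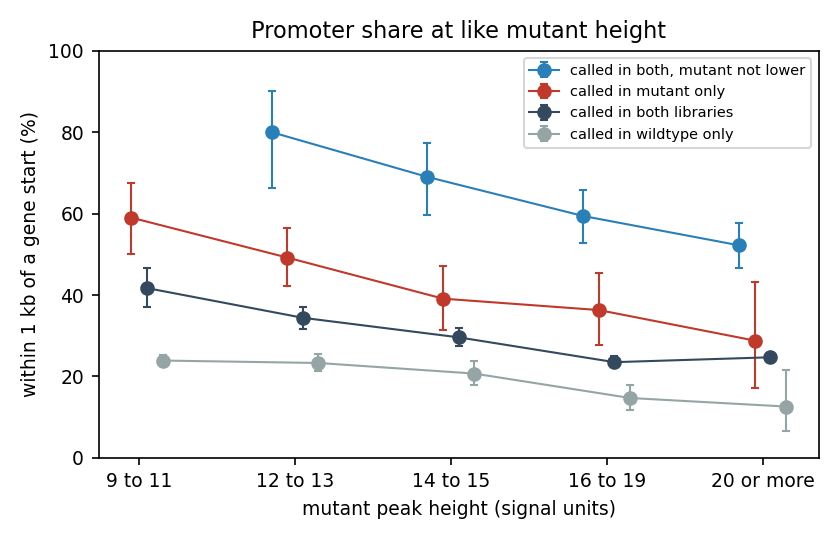
Share of regions within 1 kb of a gene start, in percent, by mutant height, for each class of call with exact binomial 95% intervals; bins with under 20 regions are left out. Mutant-only regions (red) go from 59.0% in the lowest bin to 28.8% in the highest.

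The regions with the largest ratios lay mostly away from gene starts. Of the 123 at least 2-fold higher in mutant, 15.4% were at a gene start (9.56 to 23.1), against 51.4% of the other 547 (47.1 to 55.6). By ratio, the promoter share was 44.0% of 91 regions at a log2 ratio of 0 or less, 56.7% of 270 from there to 0.5, 47.3% of 186 to 1, 22.9% of 70 to 1.5 and 5.66% of 53 beyond. CpG island shares went the same way, at 52.7%, 58.9%, 47.3%, 27.1% and 3.77%. In the last bin 49.1% lay inside a gene away from its start and 28.3% had no assigned gene. Only 3 regions of that bin were at a gene start, those of Glipr1, the histone genes and Fhl2. The median log2 ratio was 0.38 at gene starts, 0.58 elsewhere in genes, 0.45 in flanks and 0.64 without a gene. Low heights give coarse ratios, and the ratio and the mutant height share a value.

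**Figure D4:**
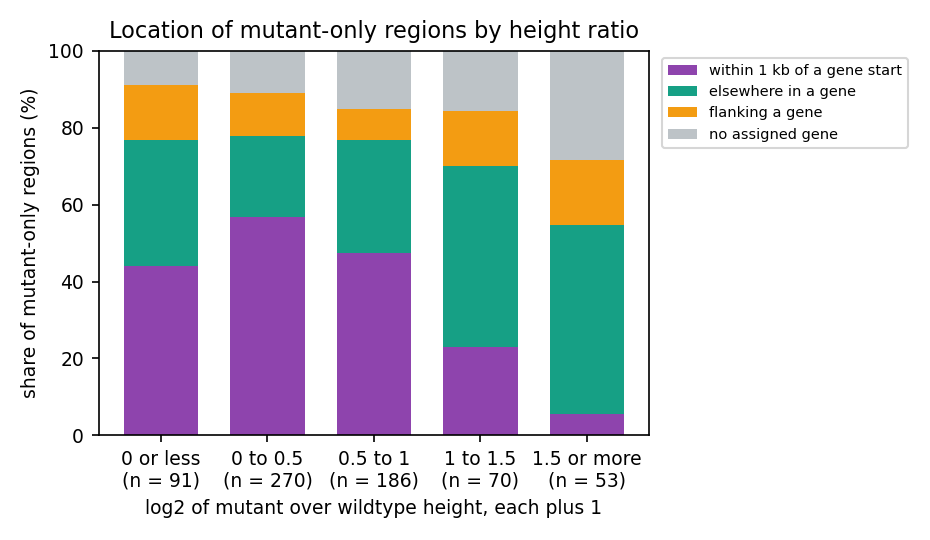
Location of the 670 mutant-only regions by log2 ratio of mutant to wildtype height, as stacked shares in percent, with the number of regions under each bar. The part within 1 kb of a gene start goes from 56.7% at ratios of 0 to 0.5 to 5.66% at 1.5 or more.

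Many mutant-only regions stood beside another region that wildtype did call. One lay within 1 kb of 103 of them, 15.4% (12.7 to 18.3), against 9.69% for regions called in both and 8.33% for those in wildtype only. Of these 103, 67.0% were at a gene start, against 40.7% of the others. Within 10 kb the shares were 49.4%, 47.8% and 39.1%. Mutant-only regions are far fewer than the 31180 regions called in wildtype, so gaps among them cannot be set against these shares. Their median gap to the nearest other mutant-only region was 718228 bp, and 12 of 670 had one within 1 kb. Neighbours of this kind included the pair at Ptp4a1, a phosphatase gene, 43 bp apart (13 and 9, then 16 and 13), and the pair at Oaz1, the ornithine decarboxylase antizyme gene, 50 bp apart (12 and 11, then 16 and 12). In each pair both regions were higher in mutant.

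On the chromosomes the mutant-only share of regions ran from 1.68% on chromosome 1 to 2.42% on chromosome 10 among autosomes. It was 1.74% on the X chromosome (11 of 634), and 0 of the 13 regions on the Y chromosome were mutant only.

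The 578 regions with a gene belonged to 902 genes, 5.40% of the 16697 genes with any region. Of these genes, 730 also had a region called in wildtype, and 172 (1.03% of all) had none. At the level of the gene start, 354 had a mutant-only region within 1 kb, and 290 of those (81.9%) had no wildtype-called region within that distance. The rule itself leaves out wildtype calls, and no like share over all gene starts is given. Wildtype height was at least 9 in 64.8% of the mutant-only regions, so a missing call did not always mean a height below the lowest one called. Of the 1420 other regions of the 902 genes 96.1% were lower in mutant, against 97.3% of all 31180 regions called in wildtype, and with heights scaled as above 48.7% and 57.4% were. Their median log2 ratio was -1.0 (-1.03 to -0.97), against -1.12.

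Of the 172 genes with mutant-only regions alone, the highest after the histone genes were Leprotl1, Mospd3 with Pcolce, Dusp14 (21 and 15), Eml4, A230046K03Rik (20 and 17), Dnajc28 (20 and 6) and Klrg1 (20 and 6). Dusp14 encodes a phosphatase of MAP kinases, and Klrg1 a receptor of natural killer and T cells. Lower down stood Hmga2, a chromatin protein gene (19 and 13), Gdf3, a TGF-beta family gene (18 and 5), and Mag, a myelin gene (18 and 6). Many of these regions lay far from the gene's start. Those of Leprotl1, Klrg1 and Gdf3 were listed at -7812, -6694 and -4213 bp. The regions of Dnajc28, Pcolce, Dusp14, Mag and Hmga2 lay 6331, 10437, 24770, 22084 and 81914 bp past the start. These genes were named by height after the values were seen.

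Genes linked to SRF were among those that carried mutant-only regions. Among 37 actin and MRTF-linked genes with a region, 9 carried one (24.3%, against 5.40% of all genes), and 12 of their 112 regions were mutant only (10.7%, against 2.38%). Genes with more regions have more chances to carry one. In 11 of the 12 the mutant was higher, with a median log2 ratio of 0.83. Of the 29 other regions of the same genes, 28 were lower as deposited and 11 after scaling. The median of those 29 was -0.88, and after scaling all 12 mutant-only regions were higher. Of all mutant-only regions 86.4% were higher in mutant, and of all regions called in wildtype 97.3% were lower, or 57.4% after scaling. The split as deposited therefore follows from the rule. The lists were chosen with earlier results of these data known, so the counts are a description.

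At gene starts, the actin list had Fhl2, Tpm1 and Myh9. Fhl2, described above for its CArG box, had 19 in mutant and 6 in wildtype at its start, while a site deep in the gene had 39 and 93. Tpm1 reached 19 and 7 at its start, a log2 ratio of 1.32, with 52 and 93, 5 and 35 and 11 and 19 at its other sites. The start was the one site of either gene that was higher in mutant as deposited, but after scaling 1 of the 2 other regions of Fhl2 and 1 of the 3 of Tpm1 were lower and the rest higher. Myh9, the nonmuscle myosin heavy chain gene, carried 3 mutant-only regions, the most of any gene. They had 22 and 17, 18 and 9, and 10 and 10, the last 644 bp past its start. Its other 7 regions were lower in mutant, except 1 at 15 and 14.

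Inside and around genes, the list had contractile and crosslinking genes. Acta2, smooth muscle actin, had 15 and 9 at 1023 bp past its start, and its other regions had 16 and 18 and 19 and 39. Tagln, the actin-binding transgelin gene, had 16 and 4 at a site 16050 bp past its start that was also assigned to Pcsk7, whereas at -1000 bp it had 21 and 52. Lmod1, a leiomodin gene, had 14 and 8 at each of 2 sites. Pdlim5, a PDZ-LIM adaptor gene, had 23 and 11. The crosslinkers Actn1 and Flna had 14 and 6 and 13 and 9. All these genes but Myh9 had mutant-only regions higher in mutant throughout. Acta2, Tagln and Lmod1 are also 3 of the 9 smooth muscle genes with a region (33.3%, against 5.40% of all genes). Their 4 mutant-only regions, of 22 regions of that list (18.2%, against 2.38%), are the same ones.

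**Figure D5:**
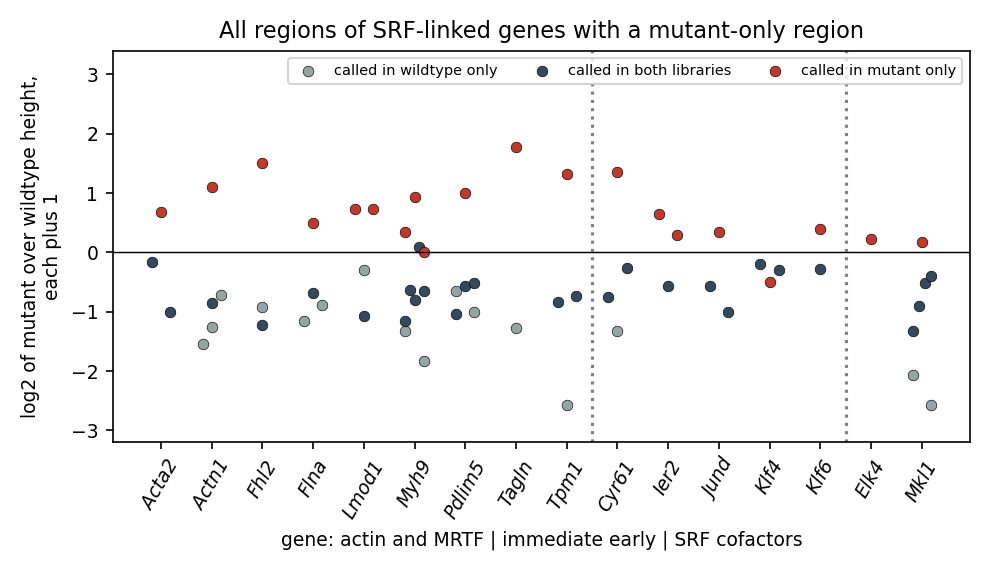
Log2 ratio of mutant to wildtype height, each plus 1, of every region of 16 SRF-linked genes that carry a mutant-only region, coloured by call. Red points, called in mutant only, lie above 0 except at Klf4 (-0.50) and 1 equal region of Myh9, while all other regions of these genes but 1 of Myh9 lie below 0 as deposited; after scaling 11 of 29, 1 of 9 and 3 of 6 other regions of the 3 groups do.

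Of 31 immediate early genes with a region, 5 carried one (16.1%, against 5.40% of all genes). Of their 76 regions, 6 were mutant only (7.89%, against 2.38%), and here too genes with more regions have more chances. Arc, described above, was not on this list and is not counted. Ier2, a nuclear regulator, had 27 and 17 downstream and 15 and 12 at its start, next to its high shared region of 82 and 122. Cyr61, a secreted matrix protein and target of both SRF and YAP, had 17 and 6 at -1884 bp, the largest ratio of the group at 1.36. Jund, an AP-1 subunit, had 13 and 10, and Klf6, a zinc finger factor, 16 and 12. Klf4, an epithelial zinc finger factor, went the other way, with 11 in mutant and 16 in wildtype. The 9 other regions of these genes were all lower in mutant, with a median of -0.57, and 1 of them was lower after scaling. Of all regions called in wildtype, 97.3% were lower as deposited and 57.4% after scaling.

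Of 7 SRF partner genes with a region, 2 carried one (28.6%, against 5.40% of all genes). Mkl1, which encodes MRTF-A, had 16 and 14 at -203 bp, and its 6 other regions were lower in mutant as deposited, 3 of them after scaling. Elk4, a TCF gene, had 13 and 11 at 281 bp past its start, its sole region. Neither ratio exceeded 0.22 on the log2 scale.

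Among 24 genes of actin turnover, 3 carried a mutant-only region (12.5%, against 5.40% of all genes). Diap3, a formin gene, had 15 and 2, with 4 and 12, 4 and 17, and 12 and 31 elsewhere. Pfn1, the profilin gene, had its sole region at 11 and 6, shared with 4 other genes. Ssh2, a cofilin phosphatase gene, had 14 and 11. In the list of adhesion and small GTPase pathway genes 5 of 20 carried one (25%), but Nedd9 and Arhgap25 were put on that list because earlier results of these data named them. The others were Src (14 and 9), Rock2 (14 and 10, at -431 bp) and Cdc42 (11 and 10).

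Apart from the smooth muscle list given above, the lists of cell types and other processes held few or none. Of 18 corneal epithelial genes with a region 1 carried one, Tkt, the transketolase gene and an abundant corneal protein, at 12 and 9. None was found at the 11 stromal, 5 corneal endothelial, 11 vessel, 8 leukocyte, 11 inflammation, 13 proliferation and 16 unrelated tissue genes with a region. These lists are short, and 5.40% of all genes carried one. ChIP signal at a gene is not its expression, so these counts say nothing of cell numbers.

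In all, 33 of the 16697 genes with any region carried 2 or more mutant-only regions. Several of the 33 share the same regions, such as Rai1 with 4930412M03Rik and Mina with Crybg3, so the count is not one of separate sites. Besides those named, Arid5b, a DNA-binding cofactor gene, had 23 and 7 and 12 and 6. Map7d1, a microtubule-associated gene, had 18 and 9 and 10 and 7, both shared with Trappc3. The second was nearer the start of Trappc3, at -1056 bp against -5030 bp. Hcfc1, a host cell factor gene, had 12 and 6 and 12 and 9. Cgnl1, a junction protein gene, had 16 and 9 and 11 and 8, and Abl2, an actin-binding kinase gene, had 11 and 9 and 11 and 11. Ccnd3, a cyclin D gene, likewise had 1 equal region, at 14 and 14, and another of 13 and 8, shared with Bysl. The equal region was shared with Taf8, and its centre lay 81 bp past the Taf8 start and at -2845 bp from that of Ccnd3. Brd2, a bromodomain gene, had 18 and 10 inside the gene and was lower in mutant at its start, with 11 and 18.

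MicroRNA genes were assigned to 19 of the mutant-only regions, 23 genes in all, 7 of them with the region's centre within 1 kb. The like share over all regions is not given, so these counts are a description. One region covered the clustered Mir132 and Mir212 (chr11:75173313-75173923), with 18 in mutant and 8 in wildtype (log2 ratio 1.08). It is named after its values were seen, because all mature sequences of both genes lay inside it. The 4 other regions of Mir132 had 25, 30, 24 and 17 in mutant against 47, 73, 58 and 30. The mature sequences, from RefSeq (GRCm38.p6), are shown with the seed, bases 2 to 8, in capitals.
mmu-miR-132-3p: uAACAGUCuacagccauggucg
mmu-miR-212-3p: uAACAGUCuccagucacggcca
mmu-miR-132-5p: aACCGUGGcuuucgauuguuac
mmu-miR-212-5p: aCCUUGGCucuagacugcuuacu

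The 3p arms of miR-132 and miR-212 share their seed, and the 5p arms do not. Both genes lie on the plus strand, in the region's 610 bp, next to Hic1. Mir22 and Mir142 were assigned to regions of 20 and 12 and of 23 and 9, but their centres lay at -9132 and -7307 bp from the gene.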

How the data were processed

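SRF ChIP-seq and input libraries of whole mouse cornea were sequenced on an Illumina instrument, per the labels' protocols. BWA was the aligner and mm10 the build, per the submitters' processing notes. Peak caller, threshold, duplicate removal and scaling of the libraries were not given in the sources used here. Called intervals per library were deposited, with merged regions and genes with their regions. Signal values were deposited for each region as a peak value (height) and an average value, per the file headers. The authors' calls, gene assignments, CpG island marks and distances to gene starts were used as deposited. Coordinates are as listed, and whether their first base is 0 or 1 was not given in the sources used here.

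Regions were taken where the mutant call was 1 and the wildtype call 0. Ratios are log2 of mutant over wildtype height with a pseudocount of 1, which understates differences of low regions. A region was at a promoter when its centre was within 1 kb of a gene start. Exact binomial (Clopper-Pearson) 95% intervals are given for shares and order-statistic ones for medians, and both cover counting error over regions only. Promoter windows and miRNAs were matched to RefSeq tables by coordinates and symbol. Of 23 miRNA genes, 20 matched. No input values were used. Alternatives were other overlap rules, a height of at least 20, a pseudocount of 5, the average value, scaled heights, a 5 kb promoter, and other gene assignments and motif rules. Scripts were tested on simulated data and used Python 3.11.15, pandas 2.3.3, numpy 2.4.6, scipy 1.17.1 and matplotlib 3.10.9.

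The regions and the 15 gene lists were chosen with earlier results of these data known. Genes were named where their region was among the 10 highest in mutant, the 10 largest ratios at a height of at least 20 or the 10 highest at promoters, where a list member or a gene with several mutant-only regions carried one, or at the edge of the rule (5 on each side). Those named by other means are marked in the text. Some regions that met this rule are not reported here.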

Additional observations from a re-analysis of the deposited data

How the results depend on the processing

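For the counts, shares and medians over the mutant-only regions, 19 alternative values were computed, of which 8 were counted as near that reported and 11 as moved. Those counted as near include 94 regions at least 2-fold higher by the average value, against 123. They also include 670 regions higher in mutant with scaled heights, against 579, and the CArG share of 2.74%. Counts and shares cannot change sign, and the median log2 ratio stayed positive. Directions of other regions of the same genes did turn with scaled heights, from 28 of 29 lower in mutant to 11 of 29 for the actin list and from 9 of 9 to 1 of 9 for the immediate early genes. The number of mutant-only regions was 670 by 1 bp overlap of the deposited intervals and 654 by summits within 1 kb, but 1203 when a shared region had to overlap by 50% each way and 52 at a mutant height of at least 20. The median log2 ratio of 0.45 became 0.34 with a pseudocount of 5, 1.47 with scaled heights and 1.03 at a height of at least 20. Regions at least 2-fold higher in mutant went from 123 to 63 with the pseudocount of 5 and 616 with scaled heights, which multiply every mutant height by the same factor. The promoter share of 44.8% became 56.7% within 5 kb and 28.8% at a height of at least 20, where the CpG island share was 26.9%. The CArG share of 3.88% became 20.9% with 1 mismatch allowed, an alternative chosen after seeing the data, as was any overlap with the window (2.74%). Beyond the alternatives' own construction the cause was not tested. No paired analysis was possible because there was 1 library for each genotype, and for the same reason no library could be left out. CArG searches over whole regions and summits were not run, since no genome sequence was used here. The depth is unknown, so low regions cannot be weighed by their counting error.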
